A study of Mus musculus with 6 samples.

Results

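The genes described here are 8 mouse genes of the ERBB system, namely 3 receptors (Egfr, Erbb2 and Erbb3) and 5 negative regulators of these receptors (Errfi1, Lrig1, Lrig3, Rnf41 and Cbl). They were chosen by symbol, and all 8 were found among the 35027 genes of the deposited expression table. By RNA-seq of tumor cells sorted for the reporter Kate from the thyroid of mice, each gene was compared between 3 libraries of YAP tumors and 3 libraries of BrafYAP tumors (BRAFYAP in the labels), with the aim of finding what mutant Braf adds to tumors that express nuclear YAP.

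In both groups Cre was expressed in thyroid follicular cells. Cre switched on a RIK allele, which encodes the dox-controlled activator rtTA together with the red fluorescent protein Kate, and doxycycline (dox) then induced a tetO transgene for YAPS127A, a YAP that stays in the nucleus. BrafYAP mice also carried an LSL allele, from which Cre releases BrafV600E under the control of the endogenous gene. Hence both groups expressed YAPS127A and received dox, and BrafV600E alone set them apart by genotype. By the labels and the paper's methods dox chow was started at 4 weeks of age, while the paper's results text has a start at 3 months. The age at collection and the sex of the mice are not given in the labels. About 20000 cells went into each library. By the labels a YAP library was pooled from 3 tumors whereas 1 tumor gave each BrafYAP library, while the paper's methods describe replicates as single tumors of separate mice, with no pooling. If the labels hold, pooling and genotype cannot be told apart.

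ERBB receptors are transmembrane tyrosine kinases that pair upon binding ligands of the EGF and neuregulin families and signal through RAS, RAF, MEK and ERK and through PI3 kinase. EGFR binds EGF-like ligands, ERBB2 has no known ligand and acts as the preferred partner in pairs, and ERBB3 binds neuregulins but has a weak kinase. Their activity is limited by proteins that block the kinase, that carry the receptor to the lysosome, or that mark it with ubiquitin, and several of these proteins are themselves made in response to ERK signaling. Nuclear YAP acts by binding TEAD transcription factors.

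The RefSeq promoter windows (build GRCm38.p6, 250 bases before to 50 bases after an annotated start) are printed below for the 4 genes whose libraries separated by genotype, to show the sequence around their annotated starts. Which start is used in these cells was not tested. They were searched on both strands for GGAATG (bound by TEAD factors), TGANTCA (AP-1) and CCGGAAGT (ETS), and matches are in capitals. The Erbb2 window is chr11:98412234-98412533 on the plus strand. Errfi1 has 2 annotated windows on the plus strand, chr4:150853546-150853845 and chr4:150854820-150855119. The Egfr window is chr11:16751953-16752252 and the Lrig3 window is chr10:125965969-125966268, both on the plus strand.
Erbb2: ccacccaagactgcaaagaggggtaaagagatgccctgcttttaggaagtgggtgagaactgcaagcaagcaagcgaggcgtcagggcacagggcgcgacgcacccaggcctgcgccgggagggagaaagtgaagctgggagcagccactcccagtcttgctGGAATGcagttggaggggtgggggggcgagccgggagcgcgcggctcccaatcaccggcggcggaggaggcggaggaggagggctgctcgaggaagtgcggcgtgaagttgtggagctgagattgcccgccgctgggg
Errfi1, upstream window: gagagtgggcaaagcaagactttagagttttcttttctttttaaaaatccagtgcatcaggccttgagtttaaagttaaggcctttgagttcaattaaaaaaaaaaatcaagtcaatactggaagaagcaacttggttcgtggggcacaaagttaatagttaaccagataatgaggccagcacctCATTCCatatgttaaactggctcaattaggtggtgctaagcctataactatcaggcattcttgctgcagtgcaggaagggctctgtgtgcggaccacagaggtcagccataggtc
Errfi1, downstream window: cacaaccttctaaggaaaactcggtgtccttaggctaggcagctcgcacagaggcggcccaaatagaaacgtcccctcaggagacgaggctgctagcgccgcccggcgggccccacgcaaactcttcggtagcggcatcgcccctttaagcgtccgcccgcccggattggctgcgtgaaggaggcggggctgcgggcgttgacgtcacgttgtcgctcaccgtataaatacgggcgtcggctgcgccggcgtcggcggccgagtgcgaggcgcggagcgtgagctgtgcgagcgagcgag
Egfr: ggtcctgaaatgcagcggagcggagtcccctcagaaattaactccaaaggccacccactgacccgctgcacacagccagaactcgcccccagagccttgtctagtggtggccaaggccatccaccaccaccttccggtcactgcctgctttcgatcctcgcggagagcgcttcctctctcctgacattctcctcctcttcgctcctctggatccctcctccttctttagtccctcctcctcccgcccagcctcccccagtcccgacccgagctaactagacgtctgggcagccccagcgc
Lrig3: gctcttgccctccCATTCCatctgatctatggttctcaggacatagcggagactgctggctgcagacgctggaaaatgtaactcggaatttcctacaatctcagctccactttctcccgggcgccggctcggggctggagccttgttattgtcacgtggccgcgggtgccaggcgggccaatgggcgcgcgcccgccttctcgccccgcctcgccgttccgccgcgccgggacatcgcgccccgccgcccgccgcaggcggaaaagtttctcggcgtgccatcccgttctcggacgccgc

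GGAATG occurred once in the Erbb2 window, beginning 88 bases before the start on the strand of the gene. On the other strand it occurred once in the upstream Errfi1 window, 65 bases before the start, and once in the Lrig3 window, 237 bases before the start. Among the other members, Cbl held one GGAATG and Rnf41 held one CCGGAAGT, while the Lrig1 window and both the Egfr window and the downstream Errfi1 window held no match. No window was available for Erbb3, which was therefore not searched. TGANTCA was found in none of the windows of the other 7 members, and no match overlapped another. Over all 32851 mouse promoter windows of this length, 14.7% held GGAATG, 7.81% held TGANTCA and 3.89% held CCGGAAGT. These matches are descriptions of the letters and not evidence of binding.

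Depth was 26.2 to 36.9 M estimated reads per library. The members had 0 to 10579 estimated reads in a library, with the lowest numbers for Lrig3 and the highest for Errfi1. Values are given as scaled reads, which are the deposited TPM with the division by gene length undone and the authors' scaling between libraries kept, so that they compare 1 gene between libraries and not 1 gene with another. BrafYAP replicate 6 stood apart, with Pearson's r of 0.732 to 0.837 to the other libraries across genes, where the other pairs had 0.833 to 0.968. It also held 19640 scaled reads of the thyroglobulin gene Tg, where BrafYAP replicates 1 and 2 held 129 and 51.8, and Tshr, the thyrotropin receptor gene, was at 0 in replicates 1 and 2 but not in replicate 6. The log2 fold change of each member is therefore also given without this library. Tg, Pax8, Nkx2-1, Krt8 and Krt18 were detected in all 6 libraries, whereas macrophage transcripts were also abundant. The 7 leukocyte markers summed to 11728 to 40323 TPM (by exonic length) in YAP and 3254 to 12598 TPM in BrafYAP libraries. Most of each sum was Lyz2 alone, at 11029 to 38891 TPM in YAP and 3007.5 to 12011 TPM in BrafYAP libraries. Ptprc had only 8.28 to 11.9 TPM and 2.04 to 4.22 TPM. Of the 6 leukocyte markers that could be tested, 5 were lower in BrafYAP at an unadjusted limma p under 0.05, against 10.5% of all genes tested. The groups did not overlap for 4, all lower in BrafYAP, against 17.1% of all genes tested. Of the 7 leukocyte markers only the B-cell gene Cd79a was at 0 in a library. Their part in the results below was not tested. In bulk samples such as these, fewer cells of a type and less RNA per cell cannot be told apart.

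The 8 members were compared between BrafYAP and YAP with limma on log2(scaled reads + 1), fitted over all 16832 genes with a mean of at least 10 scaled reads and adjusted over all of them. No member passed the threshold of 0.05, and neither did any other gene (0% of the genes tested). At an unadjusted limma p under 0.05 stood 2 members, Errfi1 and Erbb2, both higher in BrafYAP, against 1629 genes higher (9.68%) and 1775 genes lower (10.5%), or 3404 in all. The libraries of the groups did not overlap for 4 members, 2 of them higher in BrafYAP (Errfi1 and Erbb2) and 2 lower (Egfr and Lrig3), where the whole table had 11.7% of genes higher and 17.1% lower without overlap. The median log2 fold change was -0.27 over the 8 members and -0.12 over all genes tested. Nothing particular to the members as a group follows from these counts.

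**Figure D1:**
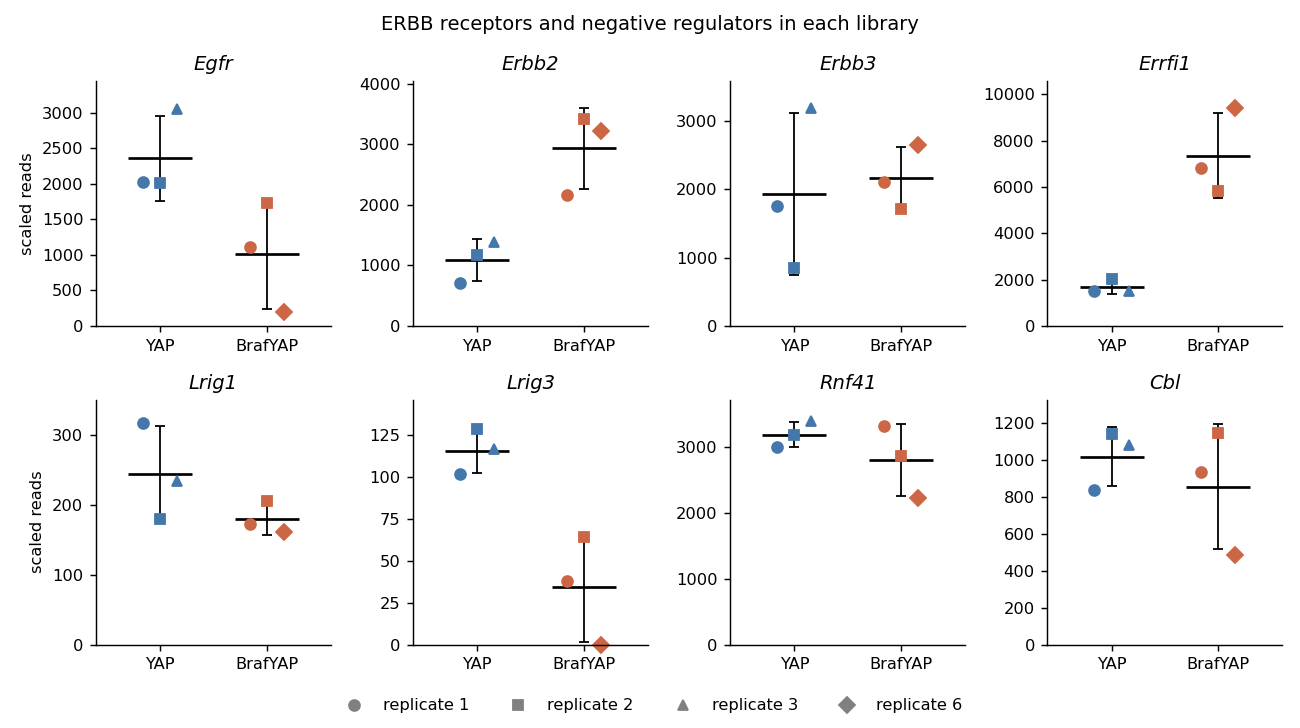
Scaled reads (y axis) of the 8 members in each library, with 1 panel per gene. Marker shapes give the replicate number, horizontal lines the group mean and bars the SD (n = 3). The BrafYAP libraries lie above all YAP libraries for Erbb2 and Errfi1 and below them for Egfr and Lrig3, and the groups overlap for the other 4 genes.

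Among the receptors, Erbb2 was higher in BrafYAP cells. It lies on chromosome 11 (98412470 to 98437716, plus strand, mm10), and its promoter window is the first of those printed above. It had 714, 1170 and 1384 scaled reads in YAP replicates 1, 2 and 3, and 2169, 3414 and 3217 scaled reads in BrafYAP replicates 1, 2 and 6. The lowest BrafYAP library thus lay above the highest YAP library. YAP libraries averaged 1090 ± 342 and BrafYAP libraries 2933 ± 669 scaled reads (SD, n = 3 each), or 2.69-fold, and the log2 fold change was 1.45 (SE 0.35, 95% interval 0.62 to 2.28), with a limma adjusted p of 0.108. When each library was left out in turn the log2 fold change ranged from 1.18 to 1.66, and it was 1.37 without BrafYAP replicate 6, the library that stood apart. Erbb2 shares 9 exonic bases with Mien1 on the opposite strand, whose scaled reads (1177 to 2826) overlapped between the groups.

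Egfr, the receptor for EGF, amphiregulin and epiregulin, was lower in BrafYAP cells. It spans 166 kb on chromosome 11 (16752203 to 16918158, plus strand) and shares no exonic base with its antisense neighbour Egfros. YAP libraries had 2021, 2005 and 3048 scaled reads, and BrafYAP libraries had 1113, 1729 and 196. The groups did not overlap, but the nearest libraries, BrafYAP replicate 2 and YAP replicate 2, were close to each other, and BrafYAP replicate 6 lay far below the other 5 libraries. The means were 2358 ± 597 (SD, n = 3) and 1013 ± 771 (SD, n = 3), and the log2 fold change, -1.67 (SE 0.76, 95% interval -3.47 to 0.12), had a limma adjusted p of 0.272. Without BrafYAP replicate 6 the log2 fold change was -0.74 (limma adjusted p = 0.280), so more than 1.5 times smaller. That library had 221 estimated reads of Egfr.

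Erbb3, the neuregulin receptor, varied within the groups and not between them. The gene lies on chromosome 10 (128567523 to 128589652, minus strand). It had 1754, 849 and 3198 scaled reads in YAP and 2114, 1719 and 2646 in BrafYAP libraries. All 3 BrafYAP libraries lay within the range of the YAP libraries, which itself was 3.77-fold wide. The coefficient of variation was 61.3% in YAP, the highest of the 8 members in that group, and 21.5% in BrafYAP cells. The log2 fold change was 0.34 (SE 0.49, limma adjusted p = 0.723), with a 95% interval from -0.82 to 1.49 that leaves room for differences in both directions. It was -0.16 without YAP replicate 2, 0.80 without YAP replicate 3 and 0.18 without BrafYAP replicate 6.

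Erbb4, the family's remaining receptor, had 18, 2 and 19 estimated reads in the YAP libraries and 0, 0 and 3 in the BrafYAP libraries. It fell under the minimum for testing, and a count of 0 allows up to 3 reads in a library, by counting error only.

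Levels of different genes were compared as TPM recomputed with the exonic length. In YAP cells the 3 receptors had like means, at 18.2 ± 5.4 TPM for Egfr, 18.2 ± 6.2 TPM for Erbb2 and 28.3 ± 18.5 TPM for Erbb3 (SD, n = 3), and their ranges over libraries overlapped. In BrafYAP cells Erbb2 was the highest receptor at 50.5 ± 11.9 TPM, followed by Erbb3 at 32.1 ± 6.5 TPM and Egfr at 8.08 ± 6.22 TPM (SD, n = 3). Erbb2 was above Erbb3 in 3 of 3 BrafYAP libraries, although their ranges overlapped, and the ranges of Erbb3 and Egfr were separate.

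Expressed as a share of the summed level of the 4 receptor genes, Erbb2 made up 22.5, 41.4 and 24.9% in YAP libraries and 48.1, 59.9 and 57.4% in BrafYAP libraries. Egfr made up 29.3, 32.6 and 25.2% in YAP libraries and 11.4, 14.0 and 1.61% in BrafYAP libraries. Both shares separated the groups, while the share of Erbb3 (26.0 to 49.8% in YAP and 26.1 to 40.9% in BrafYAP) did not. The ratio of Erbb2 to Egfr was 0.768, 1.27 and 0.987 in YAP libraries and 4.24, 4.29 and 35.6 in BrafYAP libraries, and hence was above 4 in BrafYAP replicates 1 and 2 as well as in replicate 6. The ratio of Erbb2 to Erbb3 overlapped between the groups. The summed level was 64.8 ± 28 TPM for YAP and 90.8 ± 12 TPM for BrafYAP (SD, n = 3) and overlapped, since YAP replicate 3 held 96.9 TPM. These shares and ratios restate the levels of the receptors and carry no test of their own.

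**Figure D2:**
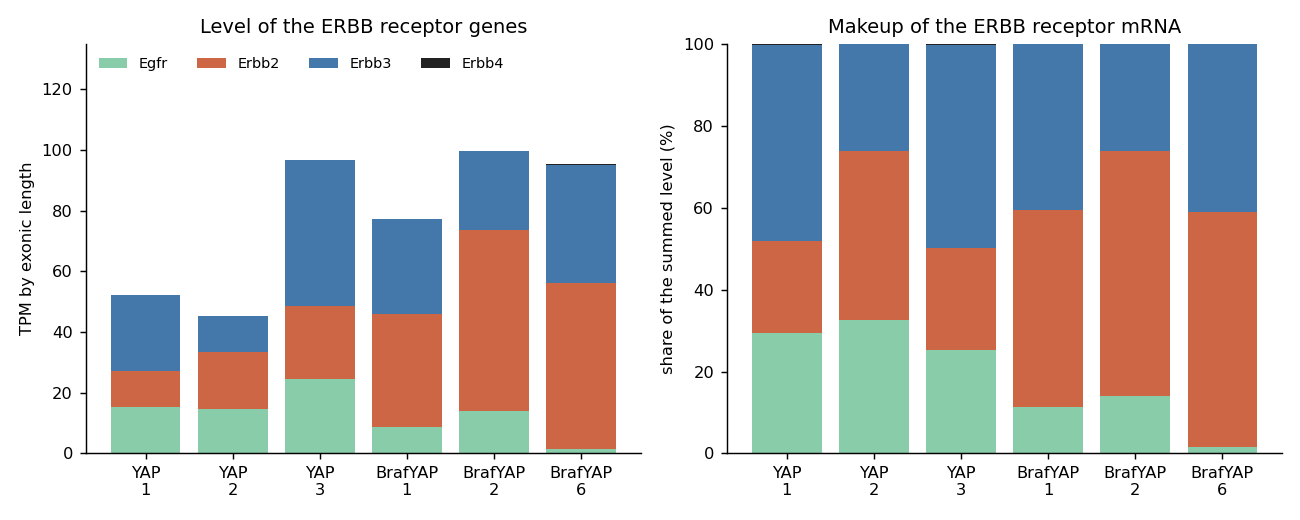
Level of the 4 ERBB receptor genes in each library, as TPM by exonic length (left, y axis) and as a percent of their sum (right, y axis), stacked by gene. Erbb2 takes 48.1 to 59.9% of the sum in BrafYAP and 22.5 to 41.4% in YAP libraries, Egfr takes 1.61 to 14.0% and 25.2 to 32.6%, and Erbb4 is barely visible.

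Of the negative regulators, Errfi1 differed most by the limma p. Errfi1 encodes MIG6, a cytoplasmic protein that binds the kinase domain of active ERBB receptors and blocks it, and it is known as a feedback gene made in response to ERK signaling. It lies on chromosome 4 (150853919 to 150868892, plus strand). The YAP libraries had 1518, 2039 and 1515 scaled reads and the BrafYAP libraries had 6830, 5831 and 9394. The lowest BrafYAP library was thus far above the highest YAP library. The means were 1691 ± 301 (SD, n = 3) and 7352 ± 1838 (SD, n = 3), a 4.35-fold difference, and the log2 fold change was 2.11 (SE 0.30, 95% interval 1.41 to 2.80). Its p ranked 46 of 16832 genes, and its limma adjusted p was 0.0589, outside the threshold. Over the alternatives its adjusted p ranged from 0.00134 to 0.256 and its log2 fold change from 1.84 to 2.23, and without BrafYAP replicate 6 the log2 fold change was 1.91 (limma adjusted p = 0.0455, inside the threshold). With all libraries kept it was inside the threshold under 3 alternatives, which are given in the closing section.

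By exonic length, Errfi1 had 40.7 ± 5.8 TPM in YAP and 184 ± 43.6 TPM in BrafYAP cells (SD, n = 3). It was below Rnf41 in 3 of 3 YAP libraries and above it in 3 of 3 BrafYAP libraries, with separate ranges both times. Per Erbb3 transcript there were 1.45, 4.03 and 0.796 Errfi1 transcripts in the YAP and 5.43, 5.70 and 5.96 in the BrafYAP libraries, without overlap. Per Erbb2 transcript the values were 3.09, 2.53 and 1.59 in the YAP and 4.58, 2.48 and 4.25 in the BrafYAP libraries, and the groups overlapped.

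LRIG1 and LRIG3 are transmembrane proteins with leucine-rich repeats and immunoglobulin-like domains. LRIG1 binds ERBB receptors and promotes their degradation, while the role of LRIG3 is less settled. Lrig1 (chromosome 6, 94604529 to 94700158, minus strand) had 317, 180 and 234 scaled reads in the YAP and 173, 206 and 161 in the BrafYAP libraries. The groups overlapped, and the log2 fold change was -0.41 (SE 0.35, 95% interval -1.22 to 0.41, limma adjusted p = 0.529), or -0.33 without BrafYAP replicate 6. Lrig1 shares 144 exonic bases with Slc25a26 on the opposite strand, and its estimated reads were not whole numbers, so reads may have been divided between both genes.

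Lrig3 (chromosome 10, 125966168 to 126015359, plus strand) was low in all libraries and lower in BrafYAP cells. It had 102, 128 and 116 scaled reads in the YAP libraries and 37.7, 64.4 and 0 in the BrafYAP libraries. The groups did not overlap, and BrafYAP replicate 6 held no read, which allows up to 3 reads there. The mean of the YAP libraries was 116 ± 13.3 (SD, n = 3) and that of the BrafYAP libraries was 34.0 ± 32.3 (SD, n = 3). The log2 fold change, -3.09 (SE 1.47, limma adjusted p = 0.287), depended on the pseudocount because of this 0, at -4.20 with 0.1 and -1.93 with 10 scaled reads added. Without BrafYAP replicate 6 it was -1.21 (limma adjusted p = 0.173), and the groups still did not overlap.

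RNF41 (NRDP1) is the ubiquitin ligase that sends ERBB3 for degradation, and CBL is the ubiquitin ligase recruited to activated EGFR. Rnf41 (chromosome 10, 128411657 to 128441441, plus strand) had the narrowest spread of the members in YAP cells. Its scaled reads were 3004, 3182 and 3391 in YAP and 3316, 2865 and 2232 in BrafYAP libraries, and the groups overlapped. The log2 fold change was -0.20 (SE 0.27, 95% interval -0.83 to 0.42, limma adjusted p = 0.690), and -0.05 without BrafYAP replicate 6. Cbl (chromosome 9, 44142976 to 44234049, minus strand) had 836, 1140 and 1084 scaled reads in YAP and 935, 1149 and 487 in BrafYAP libraries, so that BrafYAP replicate 6 was below the other 5. Its log2 fold change was -0.33 (SE 0.38, 95% interval -1.23 to 0.58, limma adjusted p = 0.654) and 0.04 without BrafYAP replicate 6. The ratio of Cbl to Egfr was 0.326 to 0.522 in YAP and 0.610 to 2.28 in BrafYAP libraries, without overlap.

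**Figure D3:**
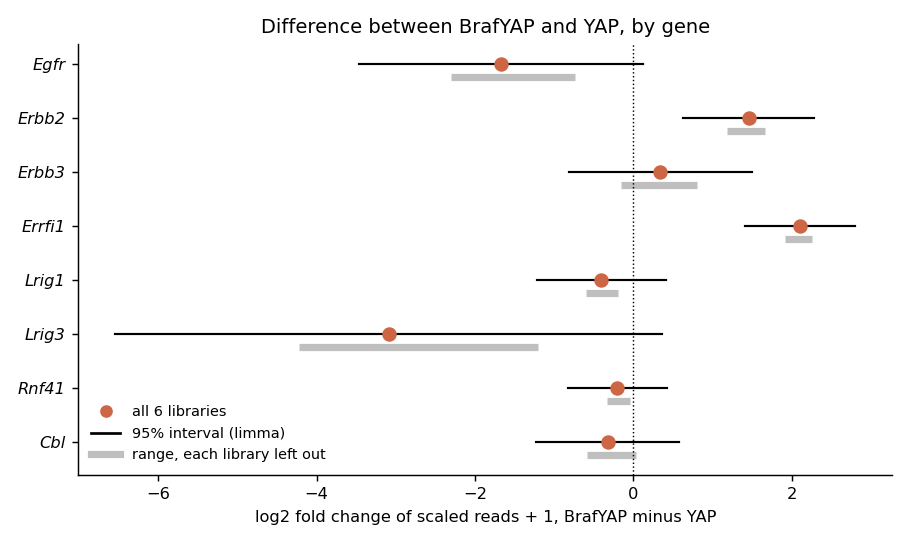
Log2 fold change of scaled reads + 1 (x axis, BrafYAP minus YAP) of each member. Points are the fit of all 6 libraries, thin lines its 95% interval from limma, and grey bars the range when each library is left out in turn. The intervals of Erbb2 (0.62 to 2.28) and Errfi1 (1.41 to 2.80) lie above 0, and those of the other 6 genes include 0.

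Ordered by level per exonic length, the members ran from Rnf41 (62.1 TPM) through Errfi1, Erbb3, Erbb2, Egfr, Cbl and Lrig1 to Lrig3 (1.2 TPM) in YAP cells. Errfi1, Erbb3, Erbb2 and Egfr were neighbours whose ranges overlapped, while Cbl (7.15 TPM), Lrig1 (3.79 TPM) and Lrig3 each lay below the gene before them in all 3 libraries with separate ranges. In BrafYAP cells the order was Errfi1 (184 TPM), Rnf41 (56.5 TPM), Erbb2, Erbb3, Egfr, Cbl (6.25 TPM), Lrig1 (2.89 TPM) and Lrig3 (0.369 TPM). There the ranges of Rnf41 and Erbb2, of Erbb2 and Erbb3, and of Egfr and Cbl overlapped. By group means the 2 LRIG genes were thus the lowest members in both groups. Rnf41 was the highest in YAP cells and next to Errfi1 in BrafYAP cells. Single libraries departed from this, since Rnf41 was above Erbb2 in 1 of 3 BrafYAP libraries. In BrafYAP replicate 6, Egfr (1.54 TPM) lay below Lrig1 (2.55 TPM).

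The genes whose log2 profile over the 6 libraries lay nearest to that of a member were found among 10736 genes with a mean of at least 100 scaled reads, by the root mean square difference of centred log2 values. Nearest to Erbb2 were Pspc1 (0.0533), Sbk1 (0.101) and Glrx5 (0.128), and nearest to Errfi1 were Pithd1 (0.174), Uhrf1bp1l (0.190) and Ppa2 (0.212). The nearest to Egfr were Exoc3l4 (0.220), Adamtsl4 (0.224) and Ccdc9b (0.238), and for Erbb3 they were Eml2 (0.209), Mast4 (0.214) and Nectin4 (0.220). Lrig1 had Psma5 (0.0377) and Msl3 near it, Rnf41 had Rrp36 (0.0336), Eif3g and Mapk1ip1, and Cbl had Erc1 (0.0684) and Lzic. Lrig3 had no close match, with Arhgef10 (0.376), Col4a3 and Trabd2b nearest. A small difference says that the genes had like ups and downs in 6 libraries and no more.

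The ligands of these receptors were examined next. Of 11 EGF-family and neuregulin genes 8 could be tested, and none passed the threshold, while 2 were higher and none lower in BrafYAP at an unadjusted limma p under 0.05. These were Areg (amphiregulin) and Ereg (epiregulin), both ligands of EGFR. Among all genes tested, 9.68% were higher and 10.5% lower at that p. Areg had 21.6, 161 and 25.7 scaled reads in YAP and 614, 737 and 3953 in BrafYAP libraries, and the log2 fold change was 4.72 (SE 0.97, limma adjusted p = 0.0903). Ereg had 940, 835 and 323 scaled reads in YAP and 3740, 1865 and 8234 in BrafYAP libraries, and the log2 fold change was 2.61 (SE 0.63, limma adjusted p = 0.108). Both groups were separate for both ligands, while Egfr, their receptor, was lower in BrafYAP cells. Of all genes tested, 11.7% were higher with separate groups. Nrg1, a ligand of ERBB3, had 1171, 2810 and 1870 scaled reads in YAP and 3532, 3988 and 137 in BrafYAP libraries. The groups overlapped through BrafYAP replicate 6 alone, and the other 2 BrafYAP libraries lay above all YAP libraries. With all libraries kept, the log2 fold change of Nrg1 was negative, at -0.56 (SE 1.23, limma adjusted p = 0.821). Hence the fit did not show Nrg1 to be higher in BrafYAP. Nrg1 was named after its values were seen. The median log2 fold change of the 8 ligands was 0.83, beside -0.12 for all genes tested.

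Other proteins that limit or sort ERBB receptors, such as ubiquitin ligases, deubiquitinases, phosphatases and endosomal sorting proteins, showed no common direction. Of 26 such genes 25 could be tested, 12 had a positive and 13 a negative log2 fold change, and the median was -0.07. At an unadjusted limma p under 0.05, 2 were higher and none lower in BrafYAP, against 9.68% higher and 10.5% lower of all genes tested. Nothing particular to these regulators follows from this count. Stub1, which encodes the chaperone-linked ubiquitin ligase CHIP, had 129, 3468 and 1156 scaled reads in YAP and 5904, 6311 and 12649 in BrafYAP libraries, and the log2 fold change was 3.27 (SE 1.09, limma adjusted p = 0.169). Cblc, a CBL paralogue of epithelia, had 44.2, 570 and 481 scaled reads in YAP and 1726, 811 and 2952 in BrafYAP libraries, and the log2 fold change was 2.79 (SE 1.00, limma adjusted p = 0.188). YAP replicate 1 was lowest for both genes, by a wide margin.

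Among 22 receptor adaptors and first effectors, 2 were higher and 1 lower at an unadjusted limma p under 0.05, with a median log2 fold change of 0.28. Of all genes tested, 9.68% were higher and 10.5% lower at that p, so nothing particular to these adaptors and effectors follows from the counts. The adaptor genes Nck2 (log2 fold change 1.50, SE 0.39, limma adjusted p = 0.116) and Crk (1.21, SE 0.28, limma adjusted p = 0.106) were higher in BrafYAP, and the exchange factor gene Vav2 was lower (-0.98, SE 0.39, limma adjusted p = 0.220). The groups were separate for all 3, where 11.7% of all genes tested were higher and 17.1% lower with separate groups. Over the ligands, other regulators and adaptors together, no gene passed the threshold in either direction.

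Since Errfi1 is a feedback gene of ERK signaling, other such genes were set beside it. Of 11 ERK feedback genes all 11 had a positive log2 fold change, 7 had an unadjusted limma p under 0.05, 10 had separate groups, and the median log2 fold change was 1.99. Among all genes tested, 9.68% were higher at that p and 11.7% were higher with separate groups. No gene among them passed the threshold. The largest differences were those of Dusp4 (log2 fold change 4.95, SE 0.67, limma adjusted p = 0.0567), Etv5 (2.77, SE 0.54, 0.0880), Spry4 (2.59, SE 0.47, 0.0818) and Etv4 (2.45, SE 0.44, 0.0818). The summed level of the 11 genes was 81.7 to 273 TPM in YAP and 731 to 794 TPM in BrafYAP libraries. The log2 fold change of Errfi1, 2.11, lay near the median of these genes. The part of ERK signaling in the difference of Errfi1 was not tested.

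Errfi1 also belongs to the transcripts that tissue digestion can induce, so the immediate-early and heat-shock genes were examined as well. Of 14 such genes 11 had a positive and 3 a negative log2 fold change. At an unadjusted limma p under 0.05, 7 of the 14 were higher and none lower in BrafYAP, and the same number had separate groups. The shares of all genes tested were 9.68% higher at that p and 11.7% higher with separate groups. The median log2 fold change was 1.47. The largest differences were those of Hspa1a (3.32, SE 1.07, limma adjusted p = 0.161), Hspa1b (3.25, SE 0.98, 0.144), Ier2 (3.06, SE 1.05, 0.178) and Junb (3.01, SE 1.22, 0.228), while Fos had 38933 to 67144 scaled reads in YAP and 61643 to 74578 in BrafYAP libraries and overlapped. Fos was named after its values were seen, and Hspa1a and Hspa1b are near-identical copies whose reads could have been divided between them. The summed level of the 14 genes was 7040 to 11943 TPM in YAP and 17955 to 24305 TPM in BrafYAP libraries. Its part in the difference of Errfi1 was not tested. Within YAP cells the library with the highest sum, replicate 2 (11943 TPM), also had the most Errfi1 (2039 scaled reads), and within BrafYAP cells the library with the highest sum, replicate 2 as well (24305 TPM), had the least (5831). These orders rest on 3 libraries per group, are a description and were not tested.

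**Figure D4:**
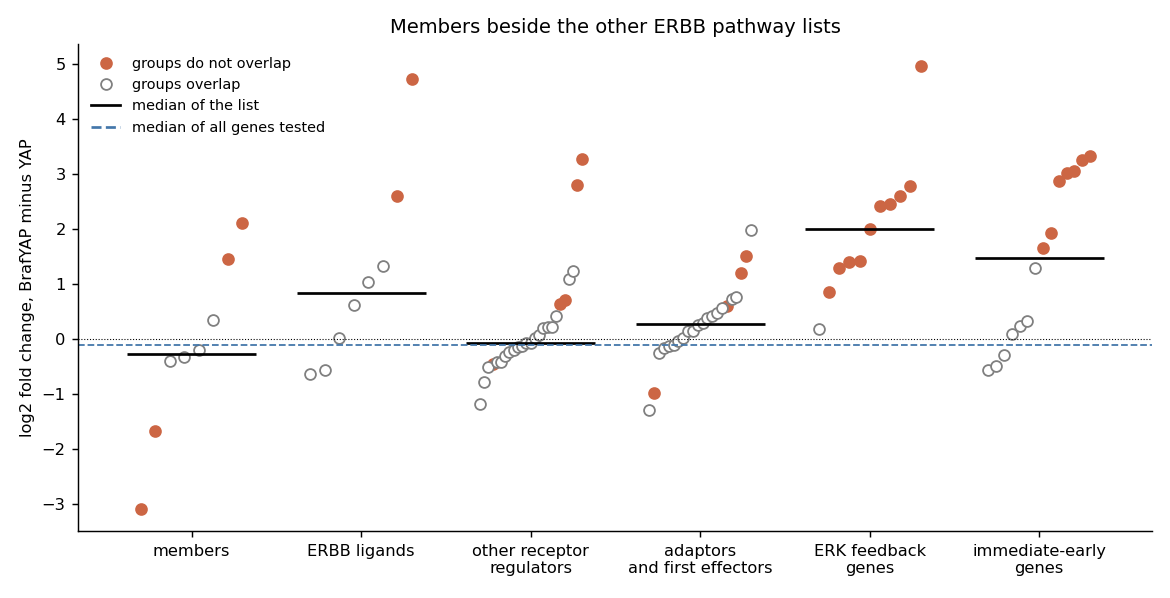
Log2 fold change (y axis, BrafYAP minus YAP) of the 8 members and of the genes tested in each list (x axis). Each point is 1 gene, filled where the groups do not overlap, with black lines for list medians and the dashed line for the median of all genes tested (-0.12). The members spread to both sides of 0, from -3.09 (Lrig3) to 2.11 (Errfi1), while 11 of 11 ERK feedback genes lie above 0.

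Markers of other cells that the sort could hold were compared on the same scale. The 11 thyroid and epithelial markers summed to 4797 to 16465 TPM in YAP and 7529 to 16922 TPM in BrafYAP libraries, the 7 fibroblast markers to 133 to 258 and 143 to 284 TPM, and the 4 endothelial markers to 3.03 to 31.3 and 1.64 to 19.2 TPM, all with overlap. The 5 skeletal muscle markers summed to 5.91 to 21.6 TPM in YAP and 1.37 to 4.23 TPM in BrafYAP libraries, without overlap, with Myh4 at 0 in 5 of 6 libraries. The epithelial marker Epcam was higher in BrafYAP libraries (1563 to 7013 scaled reads) than in YAP libraries (380 to 1228), whereas Ptprc, a leukocyte marker, was lower (409 to 873 against 1672 to 2542). Of the 7 fibroblast markers, Lum and Dcn were higher and Col1a1 was lower in BrafYAP at an unadjusted limma p under 0.05, each without overlap. All genes tested had 9.68% higher and 10.5% lower at that p, and 11.7% higher and 17.1% lower without overlap. None of these markers passed the threshold. The part of these cells in the differences of Erbb2, Egfr and Errfi1 was not tested.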

How the data were processed

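RNA-seq was performed on Kate-positive tumor cells (3 YAP and 3 BrafYAP libraries, with groups taken from the sample titles and no batch in the labels). RNA was amplified by SMART-Seq (12 cycles), library PCR took 8 cycles, and sequencing gave paired reads of 50 nt. No molecular identifiers were used, so read numbers cover counting error only. Per the labels, the processing used bcl2fastq 2.2, STAR 2.6.1d, Partek and mm10. The authors quantified reads by expectation maximization in Partek against Ensembl and deposited TPM with 0.0001 added. The totals are 181218 per library and not those of TPM by definition. Low values came out within 0.05 of a whole number of reads in 70.3 to 75.2% of genes when multiplied by genomic span (GENCODE M21), and in 22.3 to 25.0% when multiplied by exonic length. The deposited TPM had therefore been divided by the span, introns included, and estimated reads are the values times span, divided by the step of each library. Scaled reads use 1 common step. The 34640 genes at 1 locus have such values. Counting by strand is not stated, and genes that overlap on either strand can share reads.

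TPM are not counts, and no count model was used. limma 3.58.1 in R 4.3.3 (lmFit, eBayes with a trend, two-sided) was run on log2(scaled reads + 1) of genes averaging 10 or more scaled reads, with Benjamini-Hochberg adjustment over all of them and a threshold of 0.05. The script was tested on simulated data. The labels do not name the mice behind each library, and the paper's methods describe replicates as single tumors of separate mice. The members, lists and tests were chosen with earlier results of these data known. Named genes are the 8 members, Erbb4, the 3 genes of nearest profile to each member, and up to 4 genes per list with the largest log2 fold change among those at an unadjusted p under 0.05 without overlap, and genes beyond this rule are said to be so, apart from cell markers and genes that overlap a member. Some genes that this rule names are not reported here. Promoter windows are from RefSeq (GRCm38.p6) and matched 7 of 8 members, all but Erbb3. Alternatives were other pseudocounts, filters, scalings, the deposited values, no trend, array weights, voom, a replicate block, and leaving out each library in turn.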

Additional observations from a re-analysis of the deposited data

How the results depend on the processing

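The direction of Egfr, Erbb2, Errfi1, Lrig1, Lrig3 and Rnf41 was the same under all 13 other settings in which they were tested and with each library left out, and Erbb3 and Cbl changed sign. Erbb3 was -0.45 with array weights and ranged from -0.16 (without YAP replicate 2) to 0.80 (without YAP replicate 3) with a library left out, against 0.34. Cbl was 0.087 with the replicate block and 0.037 without BrafYAP replicate 6, against -0.33, and its lowest value with a library left out was -0.58. The number of all genes past the threshold, 0 in the fit reported, was 45 with a pseudocount of 10 scaled reads, 55 with scaling to the total of estimated reads, 62 with quantile normalization, 18 on the deposited values, 23 on the deposited values with a pseudocount of 0.01, 20 without a trend and 4653 with array weights, which ran from 0.221 for BrafYAP replicate 6 to 4.81 for YAP replicate 3. It ranged from 0 to 142 when each library was left out (142 without BrafYAP replicate 6, 3 without YAP replicate 2). Voom called 0 genes, with 3427 at an unadjusted p under 0.05. The number of members past the threshold, 0, was 1 (Errfi1) with scaling to the total of estimated reads (limma adjusted p = 0.0456) and with quantile normalization (0.0466), 3 with array weights (Errfi1 0.00134, Erbb2 0.0218, Egfr 0.0376), and 0 to 1 with each library left out (Errfi1 without BrafYAP replicate 6). Members at an unadjusted limma p under 0.05, 2 in the fit reported, numbered 4 with array weights and 2 to 4 with a library left out (4 without BrafYAP replicate 2). Members without overlap numbered 2 and not 4 on the deposited values, where only 4 members passed the filter, and 4 to 5 with a library left out. Pathway list genes past the threshold, 0 in each direction, were 10 higher and 4 lower with array weights, and 0 to 1 higher with a library left out. Rnf41, -0.20 in the fit reported, was -0.05 without BrafYAP replicate 6 and -0.0044 with the replicate block. In the replicate block, numbers 3 and 6 each occur in 1 library. Its fold changes therefore rest on the libraries numbered 1 and 2. Apart from this, the cause of the differences between settings was not tested. The minimum of 100 scaled reads left Lrig3 untested. Median-ratio scaling moved the median of all genes from -0.12 to 0.01, and no member changed direction. Numbers 1 and 2 occur in both groups, and the deviations of same-numbered libraries correlated at -0.03 and 0.05. These values show no shared deviation, but they cannot exclude that the numbers pair the libraries. With the replicate block, which leaves 1 residual degree of freedom, 0 genes were called and 2531 had an unadjusted p under 0.05, against 3404.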
